A study of Mus musculus with 16 samples.

Results

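Aminoacyl-tRNA synthetases are the enzymes that join each amino acid to its transfer RNA. Their genes were picked out by symbol, as every name that matched the family pattern of 1 amino acid letter followed by "ars", with or without a closing 1 or 2, plus Farsa, Farsb and Eprs. This found 34 genes among the 19505 that were measured, of which 18 encode the cytosolic enzymes and 16, whose symbols end in 2, encode the mitochondrial enzymes. The symbol rule itself used no measured value, but the family was chosen with earlier results of these data known. None of the 34 had more than 1 probe set.

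Ischemia followed by reperfusion was produced in wild-type 10-week-old male C57BL/6 mice by tying the left anterior descending coronary artery for 30 min and releasing it for 6, 24 or 72 h. Sham-operated mice of the same strain, sex and age were the controls for all 3 times, and the labels give no hours for them, so a change with time after surgery cannot be told apart from a change with reperfusion. Whole-heart RNA of 4 mice per group was measured on 16 Affymetrix arrays, 1 array per heart. Whole hearts hold cells that were never ischemic beside those that were, so values are averages over the organ.

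Values are the deposited log2 signals, differences are group mean minus group mean ± SE (n = 4 each), and "rose" and "fell" are kept for genes with a Benjamini-Hochberg adjusted p under 0.05 in limma's moderated test over all 19505 genes. Each probe set has its own response, so levels were not compared between genes. Signals under 6.76 are called dim, since 75 in 100 of the array's negative controls lay at or below that value. Cardiomyocyte markers were bright on all arrays: all 7 of Myh6, Tnnt2, Tnni3, Actc1, Ryr2, Pln and Myl2 had group means above 6.76 in every group. Of the 24 h hearts, number 17 scored 10.8 on principal component 1, where its 3 fellows scored 35.1 to 40.7, and number 16 carried the atrial gene Myl4 at 15.22, against 7.34 to 7.93 in the other 24 h hearts. Of the 72 h hearts, numbers 21 and 23 had Myl4 at 9.76 and 9.44, against 7.69 and 7.75 in the other two. Counts are also given without these arrays.

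A synthetase first activates its amino acid with ATP and then transfers it to the matching transfer RNA, which the ribosome reads. Cytosolic enzymes serve the translation of nuclear-coded messages, and a separate, nuclear-coded set is imported into mitochondria to serve the few proteins that the organelle makes itself, most of them parts of the respiratory chain on which heart muscle depends. Gars and Kars each encode both the cytosolic and the mitochondrial enzyme, and are counted here as cytosolic by their symbols. Several cytosolic genes are known targets of ATF4, the transcription factor of the amino acid response, which binds a short element known as the CARE.

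Promoters were searched for the short core of the known ATF4 element, and a link between the motif and the changes was not tested. RefSeq windows of 300 bases on GRCm38.p6 were found for 11 of the 18 cytosolic and 14 of the 16 mitochondrial genes. Cars, Nars, Hars, Rars, Vars, Wars and Lars, and mitochondrial Hars2 and Pars2, had no window and were not searched. The unsearched genes include the 4 with the largest rises at 24 h, Cars, Nars, Hars and Rars. The core TGATGNAA, searched on both strands, occurred in 4 of 11 cytosolic windows (36.4%), in 0 of 15 mitochondrial windows, and in 1304 of all 32851 windows (4.0%). The 4 windows follow, 5′ to 3′ on the strand of the gene, with the match in capitals. Gars (glycine) is at chr6:55037751-55038050 on the plus strand, Iars (isoleucine) at chr13:49681880-49682179 on the plus strand, Tars (threonine) at chr15:11399609-11399908 on the minus strand and Yars (tyrosine) at chr4:129189653-129189952 on the plus strand.
Gars: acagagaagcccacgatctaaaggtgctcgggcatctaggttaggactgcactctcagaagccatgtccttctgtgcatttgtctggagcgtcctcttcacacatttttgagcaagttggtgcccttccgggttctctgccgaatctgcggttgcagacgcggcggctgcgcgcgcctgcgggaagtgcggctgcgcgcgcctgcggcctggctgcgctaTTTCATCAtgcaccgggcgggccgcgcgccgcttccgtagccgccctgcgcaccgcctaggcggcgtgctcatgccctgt
Iars: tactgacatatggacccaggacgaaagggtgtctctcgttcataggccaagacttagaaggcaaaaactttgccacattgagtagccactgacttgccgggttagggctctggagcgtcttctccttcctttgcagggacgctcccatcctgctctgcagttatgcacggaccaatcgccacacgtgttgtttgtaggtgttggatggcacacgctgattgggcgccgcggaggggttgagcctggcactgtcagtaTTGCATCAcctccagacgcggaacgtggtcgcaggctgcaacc
Tars: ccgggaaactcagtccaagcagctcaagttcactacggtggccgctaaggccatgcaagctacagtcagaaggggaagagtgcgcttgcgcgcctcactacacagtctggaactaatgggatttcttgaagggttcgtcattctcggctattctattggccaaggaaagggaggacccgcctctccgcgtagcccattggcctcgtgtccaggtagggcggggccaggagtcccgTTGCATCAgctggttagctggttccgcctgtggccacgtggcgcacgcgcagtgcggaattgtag
Yars: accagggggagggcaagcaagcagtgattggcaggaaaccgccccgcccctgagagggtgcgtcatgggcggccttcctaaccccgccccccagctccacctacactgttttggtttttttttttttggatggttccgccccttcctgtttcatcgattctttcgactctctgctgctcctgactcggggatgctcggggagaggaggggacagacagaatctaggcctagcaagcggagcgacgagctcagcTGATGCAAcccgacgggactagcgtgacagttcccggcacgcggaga
In Gars the match began 30 bases and in Tars 15 bases before the annotated start, and in Iars and Yars it lay just after it, by 7 and 3 bases. The E-box CACGTG, which MYC can bind, is the same on both strands, and it occurred in 3 of 11 cytosolic windows (27.3%; Farsb, Iars and Tars), in 1 of 15 mitochondrial windows (6.7%; Ears2) and in 7.2% of all windows. In Iars and Tars both motifs were present and did not overlap. A match is a description of these letters, and neither motif was tested as a binding site.

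Cytosolic synthetase transcripts were higher at 24 h of reperfusion than in sham hearts. Of 18 genes, 14 rose and 0 fell, where 13.8% of all genes rose and 12.3% fell. The median change was 0.84, against -0.07 for all genes, and 17 of 18 differences were positive. At 6 h, 7 of 18 rose and 0 fell, where 7.92% of all genes rose and 12.3% fell, with a median of 0.33 against -0.04 for all genes. By 72 h, 1 of 18 rose and 0 fell, where 11.5% of all genes rose and 10.3% fell, with a median of 0.14 against -0.09 for all genes. The 24 h group had the highest mean for 16 of the 18 genes. In limma's F test over the 4 groups 15 of 18 cytosolic genes differed, against 44.5% of all genes. Without 72 h replicates 21 and 23 together, the cytosolic median at 72 h was 0.07 and 0 genes rose.

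**Figure D1:**
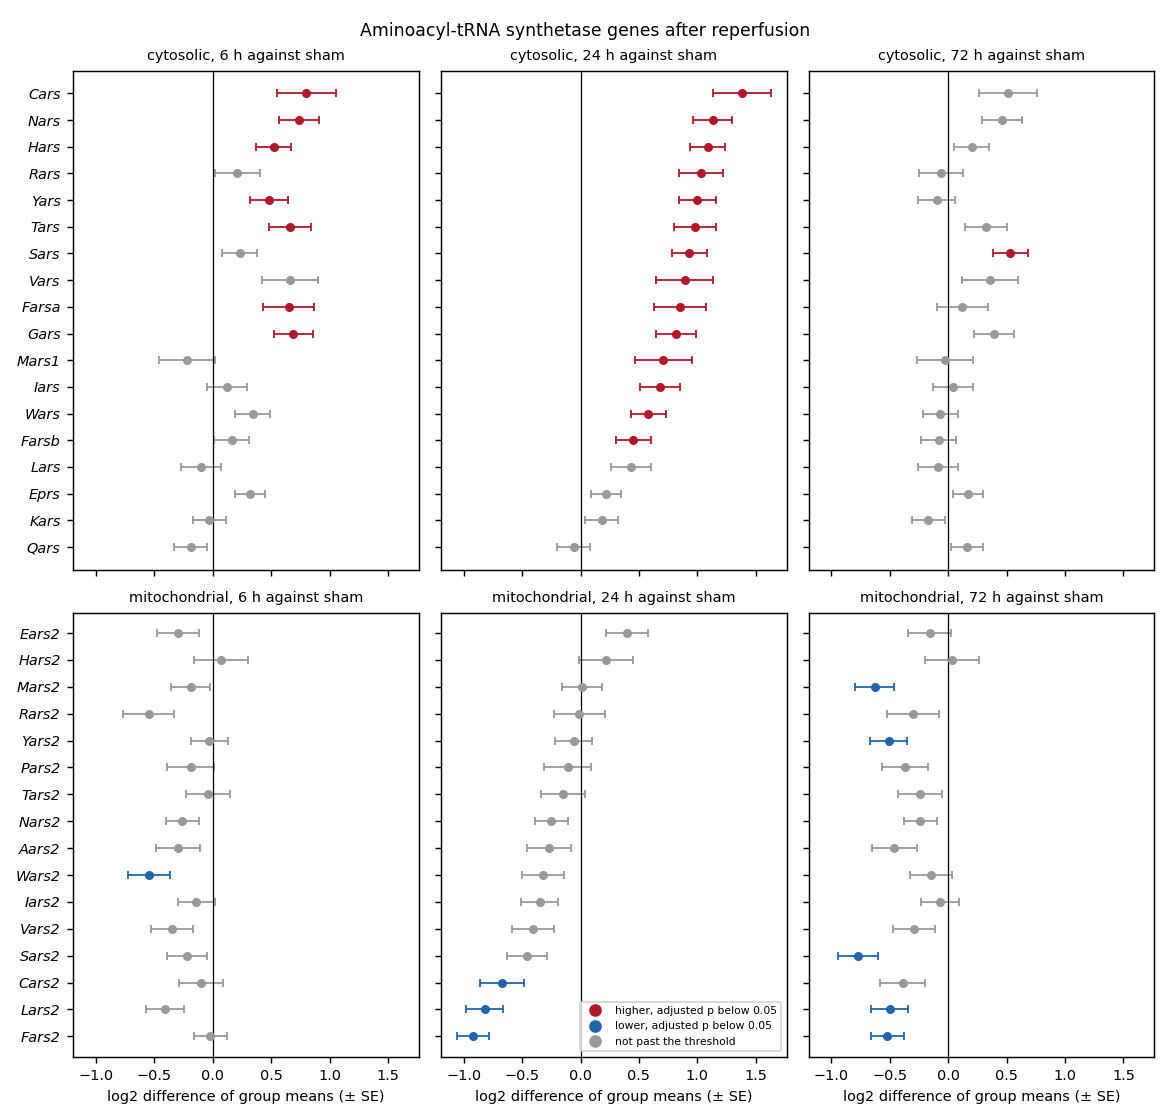
Difference in log2 signal from sham (x axis, ± SE, 4 hearts against 4) for the 18 cytosolic (upper row) and 16 mitochondrial (lower row) synthetase genes at 6, 24 and 72 h, coloured by whether limma's adjusted p passed 0.05. In the upper middle panel 14 genes lie to the right in red, and in the lower row the coloured points lie to the left.

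The size of these counts depended on how arrays were scaled. Arrays centred on the hybridization spike-in controls gave a median change of all genes of -0.26 at 6 h, 0.24 at 24 h and 0.40 at 72 h, and centring on the poly-A spike-in controls gave -0.37, -0.16 and 0.09. With these centrings the number of cytosolic genes that rose was 1 or 0 at 6 h, 17 or 11 at 24 h and 11 or 3 at 72 h. Of all 19505 genes, 975 or 864 rose at 6 h, 4546 or 2033 at 24 h and 7270 or 2752 at 72 h. With poly-A centring 1 cytosolic gene fell at 6 h, where 6087 of all genes fell. The cytosolic median at 6 h was 0.11 or, turned in sign, -0.01. Against the median of all genes under the same scaling, the cytosolic median stayed above it in all of these comparisons, as it must when 1 constant is taken from each array.

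Cars, which charges the cysteine transfer RNA, had the largest change of the family. Its signal was 8.34, 9.17, 9.43 and 8.12 in the 24 h hearts, against 7.66, 7.37, 7.35 and 7.15 in sham hearts, a rise of 1.38 ± 0.25 or 2.61-fold (adjusted p = 0.000357). All 24 h hearts lay above all sham hearts, but they spread widely, with replicates 15 and 16 above the other two. At 6 h the values were 8.10, 8.43, 7.67 and 8.54, a rise of 0.80 ± 0.25 (adjusted p = 0.0282) with no overlap with sham. At 72 h they were 8.05, 7.55, 8.02 and 7.94, a difference of 0.51 that did not pass (adjusted p = 0.167), and 1 of these hearts lay within the sham range.

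Nars, the asparagine enzyme, stood at 11.01, 11.12, 11.58 and 10.70 in the 24 h hearts, against 9.66, 10.09, 9.98 and 10.17 in sham hearts, a rise of 1.13 ± 0.17 (adjusted p = 4.96e-05). Its 6 h values of 10.58, 10.83, 10.59 and 10.86 were also all above sham, with a rise of 0.74 ± 0.17 (adjusted p = 0.00311). The 72 h values of 10.47, 10.34, 10.45 and 10.49 lay above every sham heart too, although the difference of 0.46 did not pass (adjusted p = 0.0553). Nars therefore had no overlap with sham at any of the 3 times.

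Hars, the histidine enzyme, gave 10.26, 10.25, 10.34 and 10.00 in the 24 h hearts, against 9.13, 8.99, 8.99 and 9.38 in sham hearts. This rise of 1.09 ± 0.15 had the smallest adjusted p of the family at 24 h (2.03e-05), and the 24 h hearts also lay above every 6 h heart. At 6 h Hars read 9.54, 9.78, 9.62 and 9.62, a rise of 0.52 ± 0.15 (adjusted p = 0.0171). At 72 h it read 9.03, 9.60, 9.21 and 9.45, which overlapped with sham (difference 0.20, adjusted p = 0.381).

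Rars, which charges the arginine transfer RNA within the multi-synthetase complex, was at 12.86, 13.40, 13.35 and 12.38 in the 24 h hearts, against 11.82, 11.98, 11.99 and 12.09 in sham hearts, a rise of 1.03 ± 0.19 (adjusted p = 0.000525). It overlapped with sham at the other times. Its values were 12.35, 12.09, 12.20 and 12.09 at 6 h (difference 0.21, adjusted p = 0.537) and 11.82, 12.02, 11.59 and 12.23 at 72 h (difference -0.06, adjusted p = 0.878).

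Yars, the tyrosine enzyme whose promoter is shown above, had signals of 10.97, 11.41, 11.33 and 10.91 in the 24 h hearts, against 10.33, 10.27, 9.86 and 10.17 in sham hearts, a rise of 1.00 ± 0.16 (adjusted p = 0.000117). The 6 h hearts were in between, at 10.61, 10.52, 10.70 and 10.73, and all above sham (0.48 ± 0.16, adjusted p = 0.0408). At 72 h the values of 9.91, 10.28, 9.79 and 10.28 overlapped with sham, with a difference of -0.10 (adjusted p = 0.725).

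Tars, the threonine enzyme, which also carries the promoter match, reached 11.47, 11.52, 11.85 and 10.87 in the 24 h hearts, against 10.37, 10.32, 10.55 and 10.56 in sham hearts, a rise of 0.98 ± 0.18 (adjusted p = 0.000368). At 6 h it stood at 11.16, 11.33, 10.92 and 11.03 (0.66 ± 0.18, adjusted p = 0.0112), and every 6 h heart was above every sham heart. At 72 h the values of 10.58, 10.90, 10.60 and 11 were also above every sham heart, though the difference of 0.32 did not pass (adjusted p = 0.222).

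**Figure D2:**
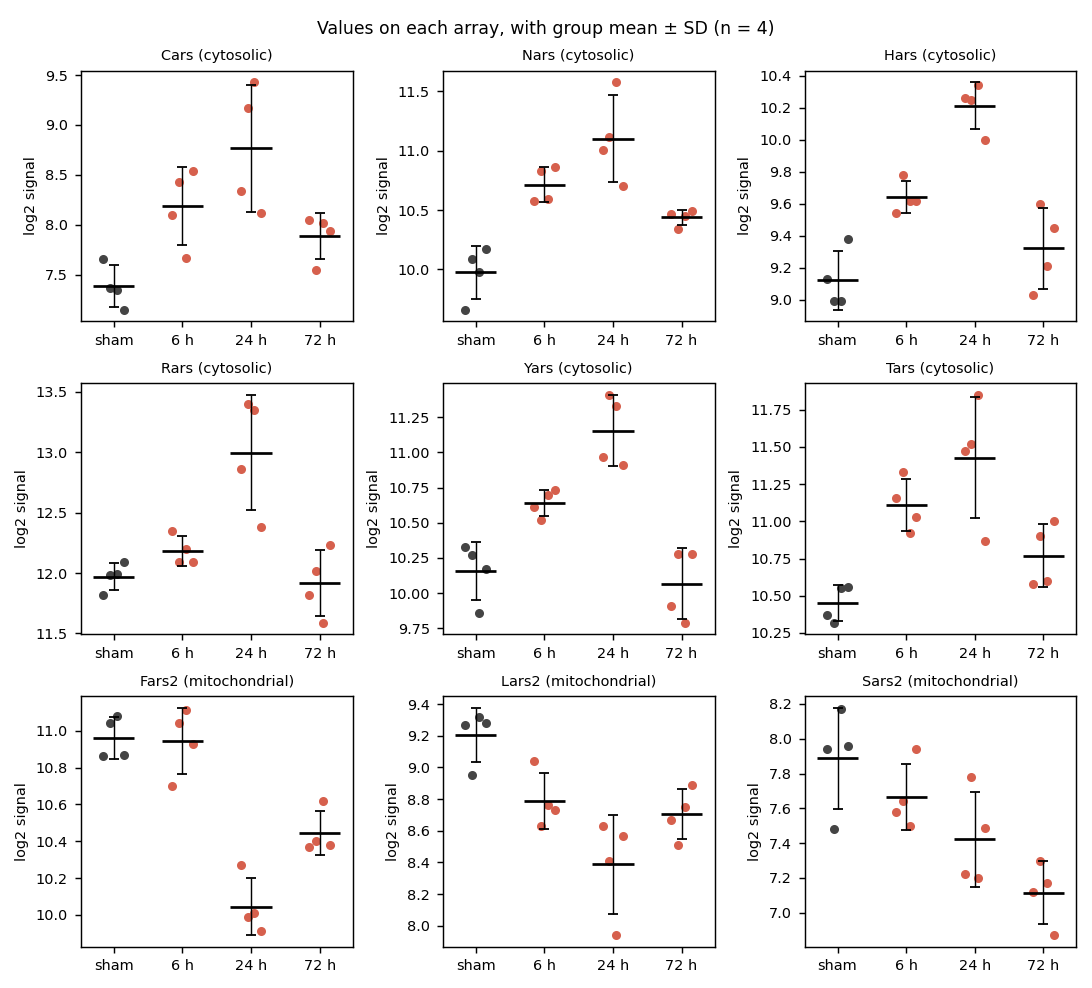
Log2 signal on each array (points) with group mean ± SD (n = 4) for the 6 cytosolic and the 3 mitochondrial synthetase genes with the largest changes, over sham, 6, 24 and 72 h. The cytosolic genes peak at 24 h with replicate 17 the lowest 24 h point in each of the 6, and Fars2, Lars2 and Sars2 lie below sham at 72 h.

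Sars, the serine enzyme, was the 1 cytosolic gene still past the threshold at 72 h. It rose by 0.93 ± 0.15 at 24 h (adjusted p = 0.000116) and by 0.53 ± 0.15 at 72 h (adjusted p = 0.0159), and at 6 h its difference of 0.23 did not pass (adjusted p = 0.349). Its 72 h hearts, at 11.63 to 11.89, lay above the sham hearts at 10.98 to 11.33. The 72 h call was lost without sham replicate 3 (adjusted p = 0.0583) or without 72 h replicate 20 (adjusted p = 0.0552), and without 72 h replicates 21 and 23 together (0.60, adjusted p = 0.0552).

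Farsa and Farsb encode the catalytic and the partner subunit of the cytosolic phenylalanine enzyme. Farsa was at 7.75, 8.28, 7.70 and 7.09 in the 24 h hearts, against 7.13, 6.47, 7.10 and 6.71 in sham hearts, a rise of 0.85 ± 0.22 (adjusted p = 0.00656). Farsb was at 11.23, 11.50, 11.70 and 10.98 in the 24 h hearts, against 11.12, 10.85, 10.82 and 10.81 in sham hearts, a rise of 0.45 ± 0.15 (adjusted p = 0.0363). In both subunits 24 h replicate 17 lay within the sham range. At 6 h Farsa rose, with values of 7.66, 7.84, 7.19 and 7.31 (0.65 ± 0.22, adjusted p = 0.0422), and Farsb read 10.99, 11.22, 11.08 and 10.94 (difference 0.16, adjusted p = 0.571). At 72 h Farsa gave 6.74, 6.93, 7.09 and 7.13 and Farsb 10.81, 10.97, 10.69 and 10.82, neither of them past the threshold (adjusted p = 0.744 and 0.755).

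Gars, the glycine enzyme of both compartments, had values of 12.33, 12.58, 12.81 and 12.11 in the 24 h hearts, against 11.49, 11.83, 11.52 and 11.68 in sham hearts, a rise of 0.82 ± 0.17 (adjusted p = 0.00134). It rose by 0.69 ± 0.17 at 6 h too (11.94, 12.47, 12.50 and 12.35; adjusted p = 0.00726), with every heart at 6 h and at 24 h above every sham heart. At 72 h it read 11.97, 12.24, 11.72 and 12.16, overlapping with sham (0.39, adjusted p = 0.12).

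Wars, the tryptophan enzyme and in human cells an interferon-responsive gene, stood at 10.42, 10.75, 10.31 and 10.62 in the 24 h hearts, against 9.91, 9.75, 9.97 and 10.14 in sham hearts, a rise of 0.58 ± 0.15 (adjusted p = 0.00595) without overlap. At 6 h the values of 10.33, 10.35, 10.51 and 9.93 overlapped with sham (0.34, adjusted p = 0.128). At 72 h they were 9.81, 9.93, 9.82 and 9.93, within the sham range (-0.07, adjusted p = 0.781). Of 12 other interferon-responsive genes measured, 3 rose and 1 fell at 6 h, 2 rose at 24 h and 7 rose at 72 h, where 7.92% of all genes rose and 12.3% fell at 6 h, and 13.8% and 11.5% rose at 24 h and 72 h. They included Cxcl10 (3.02, 1.64 and 2.95 at the 3 times) and Psmb8 (1.44 at 72 h), and Irf1 did not pass at any time (-0.37, -0.23 and 0.19). Both Cxcl10, at 3.66 to 4.86, and Psmb8, at 6.33 to 6.73, were dim in sham hearts, so these sizes depend on the background.

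Vars (valine), Mars1 (methionine) and Iars (isoleucine) rose at 24 h by 0.89 ± 0.24 (adjusted p = 0.00829), 0.71 ± 0.24 (adjusted p = 0.0362) and 0.68 ± 0.17 (adjusted p = 0.00465). Vars was dim in sham hearts, with a mean of 6.29, so the size of its change depends on the background. At 6 h all Vars values were above sham, with a difference of 0.66 that did not pass (adjusted p = 0.0555). For Mars1 and Iars 24 h replicate 17, at 8.03 and 11.85, lay within the sham range.

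The rises at 24 h did not rest on the arrays that stood apart: without replicates 16 and 17 together the count was again 14 of 18, and without each array in turn it ran between 12 and 15. Mars1 and Farsb were the least stable, with Farsb at an adjusted p of 0.139 without 24 h replicate 16 and Mars1 at 0.109. At 6 h the count of 7 fell to 3 without sham replicate 3, and to 4 without sham replicate 4 or 5. The genes lost were Cars, Hars, Yars and Farsa in different combinations.

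The multi-synthetase complex is held together by 3 scaffold proteins, and 7 of the 18 cytosolic genes measured here encode enzymes of it. These 7 gave fewer calls at 6 h and 24 h than the other 11. Of the 7 (Rars, Mars1, Iars, Lars, Eprs, Kars and Qars), 0 rose at 6 h, 3 at 24 h and 0 at 72 h, with medians of -0.03, 0.43 and -0.03. Of the 11 outside the complex, 7 rose at 6 h, 11 at 24 h and 1 at 72 h, with medians of 0.65, 0.93 and 0.32. Of all genes, 7.92%, 13.8% and 11.5% rose at these times. The counts of 0 of 7 at 6 h and 72 h and of 1 of 11 at 72 h were thus near those shares. The split was made by known membership with these values in view, and the difference between the 2 groups was not tested.

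Lars, Eprs, Kars and Qars were the cytosolic genes that did not pass against sham at 24 h. Eprs, which joins the glutamate and proline enzymes in 1 protein, read 14.98, 15.05, 14.96 and 14.56 at 24 h, against 14.65, 14.53, 14.72 and 14.76 in sham hearts (0.22, adjusted p = 0.252). Its 6 h hearts, at 14.95, 15.10, 14.89 and 15.01, all lay above sham (0.32, adjusted p = 0.104), and its 72 h hearts, at 14.92, 14.81, 14.92 and 14.69, overlapped with sham (0.17, adjusted p = 0.396). Lars, the leucine enzyme and a known leucine sensor, was higher by 0.43 at 24 h (adjusted p = 0.0715).

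Kars, the lysine enzyme of both compartments, was at 12.46, 12.42, 12.33 and 12.06 at 24 h, against 11.97, 12.18, 12.16 and 12.24 in sham hearts (0.18, adjusted p = 0.379). Its values were 12.03, 12.17, 12.10 and 12.12 at 6 h and 11.79, 12.25, 12.00 and 11.84 at 72 h, and all of these overlapped with sham. Qars, the glutamine enzyme, gave 12.76, 12.84, 12.74 and 12.29 at 24 h, against 12.69, 12.67, 12.74 and 12.76 in sham hearts (-0.06, adjusted p = 0.82). At 6 h Qars read 12.45, 12.70, 12.38 and 12.54 and at 72 h 12.89, 12.79, 12.82 and 13.00, where all hearts were above sham without passing (0.16, adjusted p = 0.454).

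Of the scaffold genes, Eef1e1, which encodes AIMP3, rose by 0.79 ± 0.19 at 6 h (adjusted p = 0.00419) and by 1.97 ± 0.19 at 24 h (adjusted p = 3.65e-07), and at 72 h its difference was 0.10. Aimp2 rose at 24 h (1.03 ± 0.20, adjusted p = 0.000658) and was at -0.45 at 6 h and -0.37 at 72 h, neither past the threshold. Aimp1 passed at no time, with 0.09, 0.18 and 0.05 at 6, 24 and 72 h. Of 4 genes related to synthetases, Prorsd1 fell at all 3 times (-0.57, -0.52 and -0.49) and Tarsl2 fell at 24 h (-0.69 ± 0.22, adjusted p = 0.0221).

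**Figure D3:**
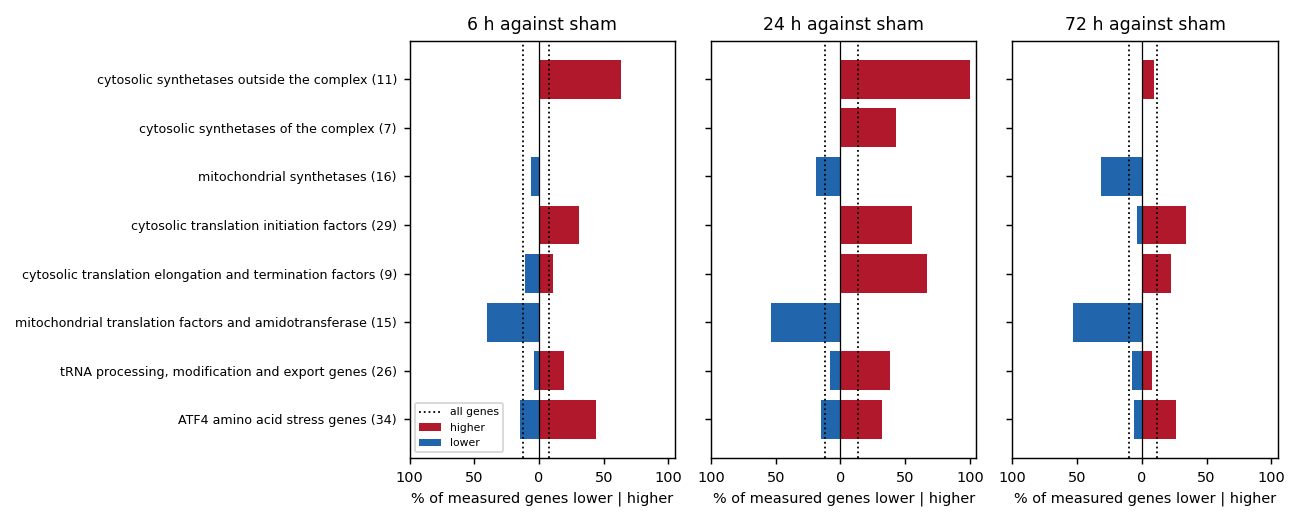
Share of measured genes that were higher (right, red) or lower (left, blue) than sham at 6, 24 and 72 h in the synthetase groups and in other translation and amino acid gene lists, by limma's adjusted p under 0.05, with list sizes in brackets and dotted lines at the share of all genes. At 24 h the bar of cytosolic synthetases outside the complex reaches 11 of 11, and both mitochondrial lists have bars on the left only.

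The times were also set against each other, with comparisons that share their 24 h arrays. At 24 h against 6 h, 7 of 18 cytosolic genes rose and 0 fell, where 17.3% of all genes rose and 10.9% fell. These were Mars1 (0.93 ± 0.24), Rars (0.81 ± 0.19), Sars (0.70 ± 0.15), Hars (0.57 ± 0.15), Iars (0.56 ± 0.17), Lars (0.53 ± 0.17) and Yars (0.51 ± 0.16). The count was 4 without 24 h replicate 15 and 11 without 24 h replicate 17.

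At 72 h against 24 h, 11 of 18 cytosolic genes fell and 0 rose, where 6.07% of all genes fell and 6.85% rose, with a median of -0.64 against -0.02 for all genes. The largest falls were in Yars (-1.09 ± 0.16, adjusted p = 0.000125), Rars (-1.08 ± 0.19), Hars (-0.89 ± 0.15) and Cars (-0.88 ± 0.25), and in all 4 every 72 h heart lay below every 24 h heart. Nars, Tars, Farsa, Iars, Wars, Farsb and Lars fell by 0.52 to 0.73 on the log2 scale. Without 24 h replicate 15 the count of falls was 5, without 24 h replicate 16 it was 6, without 72 h replicate 20 it was 7 and without 24 h replicate 17 it was 15, and with spike-in centring of either kind it was 3. Without 72 h replicates 21 and 23 together it was 5, with a median of -0.66. Set against 6 h, 72 h hearts had 2 falls, in Yars (-0.58 ± 0.16) and Wars (-0.41 ± 0.15), where 13.1% of all genes fell and 17.5% rose; centred on the hybridization spike-ins both differences turned positive, at 0.14 and 0.31, and on the poly-A spike-ins that of Wars did, at 0.12.

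No mitochondrial synthetase transcript rose against sham at any time. Of 16 genes, 0 rose and 1 fell at 6 h, with a median of -0.21, 0 rose and 3 fell at 24 h, with a median of -0.26, and 0 rose and 5 fell at 72 h, with a median of -0.33. Of all genes, 7.92%, 13.8% and 11.5% rose at these times, and 12.3%, 12.3% and 10.3% fell. At such shares few rises are to be found among 16 genes, so 0 was only a little below them. The count of falls was below the share of all genes at 6 h and near it at 24 h. The sham group had the highest mean for 13 of the 16 genes. In the F test 7 of 16 differed, which was near the share of all genes (44.5%). Without 72 h replicates 21 and 23 together, 1 gene, Sars2, fell at 72 h and the median was -0.27; without these arrays 767 of all genes fell, against 2004 with all arrays. Of the 16 mitochondrial genes, 6 (Ears2, Hars2, Pars2, Aars2, Wars2 and Vars2) were dim on average. Centred on the hybridization spike-ins, the mitochondrial medians were -0.43, 0.05 and 0.16 at 6, 24 and 72 h, so the direction at 24 h and 72 h turned. With this centring 5, 1 and 0 mitochondrial genes fell, where 3993, 841 and 247 of all 19505 genes did. Ears2 rose at 24 h (0.71, adjusted p = 0.0151). Centred on the poly-A spike-ins the mitochondrial medians were -0.55, -0.35 and -0.15. Here 9, 4 and 1 mitochondrial genes fell, where 6087, 2479 and 590 of all genes did.

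Fars2, the mitochondrial phenylalanine enzyme, read 10.27, 9.99, 10.01 and 9.91 in the 24 h hearts, against 10.86, 11.04, 11.08 and 10.87 in sham hearts, a difference of -0.92 ± 0.14 (adjusted p = 4.49e-05). The groups were far apart at 24 h, and the 6 h hearts, at 10.70, 11.04, 11.11 and 10.93, were not below sham (-0.02, adjusted p = 0.962). At 72 h the values of 10.37, 10.40, 10.62 and 10.38 were again below every sham heart (-0.52 ± 0.14, adjusted p = 0.00879). The fall between 6 h and 24 h was itself past the threshold, with 24 h against 6 h at -0.90 ± 0.14 (adjusted p = 5.45e-05). With hybridization spike-in centring that difference was -0.37 and did not pass (adjusted p = 0.0618). Without 72 h replicates 21 and 23 together, the 72 h difference from sham was -0.47 and did not pass (adjusted p = 0.105).

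Lars2, the mitochondrial leucine enzyme, was at 8.63, 8.41, 7.94 and 8.57 in the 24 h hearts, against 9.27, 8.95, 9.32 and 9.28 in sham hearts (-0.82 ± 0.16, adjusted p = 0.000804). All 24 h and all 72 h hearts lay below all sham hearts, and the 72 h values of 8.67, 8.51, 8.75 and 8.89 gave -0.50 ± 0.16 (adjusted p = 0.0332), a call that was lost without any 1 of 6 arrays and without 72 h replicates 21 and 23 together (adjusted p = 0.138). At 6 h it read 9.04, 8.63, 8.76 and 8.73 (-0.41, adjusted p = 0.0827). Centred on the hybridization spike-ins, Lars2 did not pass at 24 h (-0.51, adjusted p = 0.0766).

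Sars2, the mitochondrial serine enzyme, had its lowest values at 72 h. They were 7.12, 7.30, 7.17 and 6.87, against 7.94, 7.48, 8.17 and 7.96 in sham hearts (-0.77 ± 0.17, adjusted p = 0.0028), with no overlap. At 24 h its values of 7.22, 7.78, 7.20 and 7.49 gave -0.46 (adjusted p = 0.0541), and at 6 h 7.58, 7.64, 7.50 and 7.94 gave -0.22 (adjusted p = 0.445), both overlapping with sham.

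Cars2 (cysteine) fell at 24 h (-0.67 ± 0.19, adjusted p = 0.0104), a call lost without 24 h replicates 16 and 17 together (-0.37, adjusted p = 0.197). Mars2 (methionine) and Yars2 (tyrosine) fell at 72 h, with differences of -0.63 ± 0.17 (adjusted p = 0.0133) and -0.51 ± 0.16 (adjusted p = 0.0266). The Yars2 call was lost without sham replicate 3 (-0.39, adjusted p = 0.106), sham replicate 4 or 72 h replicate 21 or 23, and without these 72 h replicates together neither Mars2 (-0.54, adjusted p = 0.133) nor Yars2 (-0.44, adjusted p = 0.202) passed. Wars2 (tryptophan), dim in every group, fell at 6 h (-0.55 ± 0.18, adjusted p = 0.0363), and this single 6 h call was lost without any 1 of sham replicates 2, 3 and 5 or 6 h replicates 8 and 10. Iars2 (isoleucine), Vars2 (valine), Aars2 (alanine), Nars2 (asparagine), Tars2 (threonine), Pars2 (proline), Rars2 (arginine) and Hars2 (histidine) passed the threshold at no time against sham. Their differences at 24 h ran between -0.41 in Vars2 and 0.22 in Hars2.

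Ears2, the mitochondrial glutamate enzyme, went the other way between times. It read 5.15, 5.65, 5.09 and 4.79 at 24 h, against 4.44, 4.33, 4.17 and 4.92 at 6 h (0.71 ± 0.18, adjusted p = 0.00541), with 24 h replicate 17 below the highest 6 h heart. Set against 24 h, the 72 h hearts at 4.54, 4.75, 4.49 and 4.64 were lower (-0.56 ± 0.18, adjusted p = 0.0424). Sham hearts stood at 4.78, 4.64, 4.88 and 4.77, and no time passed against sham (0.40 at 24 h, adjusted p = 0.108). All of these signals are dim, and the change at 72 h against 24 h was lost without any 1 of 7 arrays.

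For mitochondrial genes between times, 1 rose (Ears2) and 2 fell (Fars2 and Cars2) at 24 h against 6 h, 0 rose and 2 fell (Mars2 and Ears2) at 72 h against 24 h, and 0 rose and 3 fell (Sars2, Fars2 and Yars2) at 72 h against 6 h. Of all genes, 17.3% rose and 10.9% fell in the first of these comparisons, 6.85% and 6.07% in the second, and 17.5% and 13.1% in the last. The change of Cars2 at 24 h against 6 h was -0.57 (adjusted p = 0.0251), and -0.05 with hybridization spike-in centring (adjusted p = 0.864). Without 72 h replicates 21 and 23 together, 0 mitochondrial genes fell at 72 h against either other time. The differences at 72 h against 6 h were -0.55 for Sars2, -0.50 for Fars2 and -0.48 for Yars2, and centring on the hybridization spike-ins turned them to 0.17, 0.21 and 0.23.

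Genes were also counted without a test, by whether all 4 hearts of 1 group lay beyond all 4 of the other, with the share of all genes in brackets. The mitochondrial count at 6 h against sham was below that share, and both counts at 24 h against 6 h were near it. The mitochondrial count above at 72 h against 24 h and the cytosolic count below at 72 h against 6 h were also near it. The cytosolic count above at 72 h against 6 h was under it. At 6 h 9 of 18 cytosolic genes lay wholly above sham (9.06% of all genes did) and 1 of 16 mitochondrial genes wholly below (13.7%). At 24 h the counts were 10 of 18 above (12.9%) and 4 of 16 below (13.0%), and at 72 h 4 of 18 above (12.7%) and 6 of 16 below (14.4%). At 24 h against 6 h, 4 of 18 cytosolic genes lay above (15%) and 2 of 16 mitochondrial genes below (9.89%). At 72 h against 24 h, 8 of 18 cytosolic and 3 of 16 mitochondrial genes lay below (7.86%) and 1 mitochondrial gene above (7.79%). At 72 h against 6 h, 3 of 18 and 4 of 16 lay below (13.4%) and 1 cytosolic gene, Qars, above (17.1%).

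Over both compartments and both directions, 8 of 34 genes passed at 6 h against sham, where 20.2% of all genes did, 17 of 34 at 24 h (26.1%) and 6 of 34 at 72 h (21.8%). Between times, 13 of 34 passed at 72 h against 24 h (12.9%), 10 of 34 at 24 h against 6 h (28.2%) and 5 of 34 at 72 h against 6 h (30.6%). The counts at 6 h and 72 h against sham and at 24 h and 72 h against 6 h were thus near or below the share of all genes. Without 72 h replicates 21 and 23 together, 1 of 34 passed at 72 h against sham, 5 at 72 h against 24 h and 2 at 72 h against 6 h.

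For 15 amino acids both a cytosolic and a mitochondrial enzyme were measured, which gives 16 pairs of genes, since 2 cytosolic genes encode the phenylalanine enzyme, while Eprs enters the glutamate and the proline pair. The cytosolic change lay above the mitochondrial change in 15 of 16 pairs at 6 h, 15 of 16 at 24 h and 16 of 16 at 72 h. Taking 1 constant from each array leaves these counts as they are. Quantile normalization gave 15 of 16 at 72 h, and without 72 h replicates 21 and 23 together it was 14 of 16. At 24 h 3 pairs had a cytosolic gene that rose and a mitochondrial gene that fell: Cars (1.38) with Cars2 (-0.67), and Farsa (0.85) and Farsb (0.45) with Fars2 (-0.92). At 72 h 1 pair did, Sars (0.53) with Sars2 (-0.77). The exception at 24 h was Eprs (0.22) with Ears2 (0.40). Hars and Hars2 are next to each other on chromosome 18, and at 24 h Hars rose by 1.09 where Hars2 stood at 0.22 (adjusted p = 0.538).

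**Figure D4:**
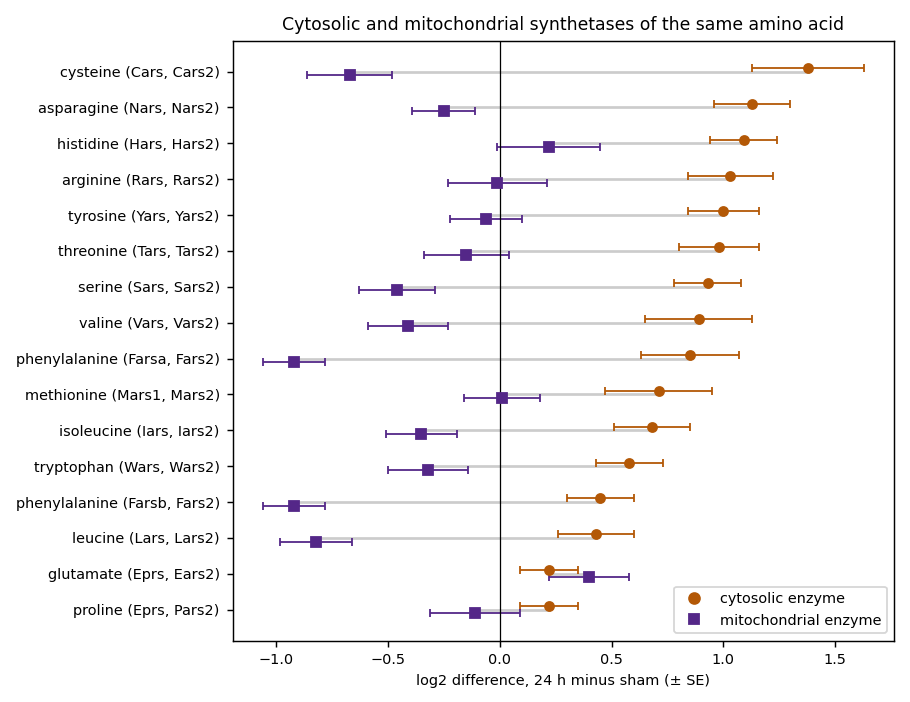
Difference in log2 signal between 24 h and sham hearts (x axis, ± SE) for the cytosolic (circles) and mitochondrial (squares) enzyme of the same amino acid, 1 row per pair. The circle lies to the right of the square in 15 of 16 rows, the exception being glutamate (Eprs and Ears2).

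Other genes of translation give the setting of these values. Of 29 genes of translation initiation in the cytosol, 9 rose and 0 fell at 6 h, 16 rose and 0 fell at 24 h, with a median of 0.54, and 10 rose and 1 fell at 72 h. They are initiation factors, apart from Eif4ebp1 and Eif4ebp2, which encode repressors that bind one of the factors. Of all genes, 7.92% rose and 12.3% fell at 6 h, 13.8% and 12.3% at 24 h, and 11.5% and 10.3% at 72 h. Eif4a1, the helicase of the cap complex, rose by 1.06, 1.86 and 0.77 at 6, 24 and 72 h, Eif1a, a factor of start-site choice, by 3.23, 2.15 and 1.15, and Eif6, a ribosome assembly factor, by 1.55 and 2.25 at 6 and 24 h. Elongation and termination factors had 6 of 9 up and 0 down at 24 h, with Eef1a1, which carries the charged transfer RNA to the ribosome, at 1.04 ± 0.13 (adjusted p = 9.97e-06) and Eef1b2 at 0.91 ± 0.15. At 6 h 1 of 9 was up and 1 down, near the shares of all genes, and at 72 h 2 were up and 0 down. These 2 named genes had not returned to sham values at 72 h. Eef1a1 read 18.83 to 19.04 at 72 h, against 17.59 to 17.98 in sham hearts. Eef1b2 read 15.26 to 15.75, against 14.50 to 14.57.

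Of 26 genes for transfer RNA processing, modification and export, 5 rose and 1 fell at 6 h, 10 rose and 2 fell at 24 h, and 2 rose and 2 fell at 72 h. The share of all genes was 7.92% up and 12.3% down at 6 h, 13.8% and 12.3% at 24 h, and 11.5% and 10.3% at 72 h, so the rises at 72 h were below the share of all genes. Xpot, which exports transfer RNA from the nucleus, rose by 0.83 ± 0.16 at 24 h (adjusted p = 0.000516). Trmt6 and Trmt61a, the subunits of an adenosine methyltransferase, rose by 1.38 ± 0.19 and 1.10 ± 0.21, and Nsun2, a cytosine methyltransferase, by 1.21 ± 0.19. Trmt61a was dim in sham hearts, with a mean of 5.75, so the size of its change depends on the background. Among 15 mitochondrial translation factors and amidotransferase genes, 0 rose and 6 fell at 6 h, 0 rose and 8 fell at 24 h, and 0 rose and 8 fell at 72 h, with medians of -0.35, -0.47 and -0.49. Qrsl1, a subunit of the enzyme that makes mitochondrial glutamine transfer RNA in place of a synthetase, fell at all 3 times (-0.78, -0.88 and -1.26), and Tufm, the mitochondrial elongation factor, fell at 24 h (-0.77 ± 0.16).

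ATF4 amino acid stress genes were mixed, with 15 of 34 up and 5 down at 6 h, 11 up and 5 down at 24 h, and 9 up and 2 down at 72 h, where the shares of all genes were 7.92% and 12.3%, 13.8% and 12.3%, and 11.5% and 10.3%. Atf4 itself was highest at 6 h (1.72 ± 0.28, adjusted p = 0.000152) and did not pass at 24 h (0.73, adjusted p = 0.063) or 72 h (0.39, adjusted p = 0.362). Asns, asparagine synthetase, rose by 1.59, 2.25 and 1.37 at 6, 24 and 72 h, Psat1, of serine synthesis, by 1.73, 3.58 and 1.52, and Slc7a5, an amino acid transporter, by 2.25, 2.61 and 1.19. Ddit3, which is also a known ATF4 target, fell at 6 h (-1.34 ± 0.26, adjusted p = 0.000701). Atf3 had the largest positive difference of the list at 6 h (6.07), and read 7.95 to 9.79 at 24 h, against 7.23 to 8.05 in sham hearts. The most negative differences were in Cth at 6 h (-1.37), at dim signals of 4.58 to 5.36, and in Vldlr at 24 h (-2.05). Stc2 was at 5.87 to 6.55 at 24 h, against 7.39 to 8.68 in sham hearts. Eif2ak4, the kinase that senses uncharged transfer RNA, rose by 1.44, 0.59 and 0.57, and Myc by 6.50, 3.93 and 2.16 at 6, 24 and 72 h. Psat1, Slc7a5 and Myc were dim in sham hearts, with means of 5.93, 5.44 and 5.36, so the sizes of their changes depend on the background.

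Marker genes of other cell types were read on the same arrays. The shares of all genes that rose and fell were 7.92% and 12.3% at 6 h, 13.8% and 12.3% at 24 h, and 11.5% and 10.3% at 72 h. Monocyte and macrophage markers had 6 of 11 genes up and 1 down at 6 h, 10 up at 24 h and 10 up at 72 h, and their summed log2 signal was 83.7 to 85.9 in sham hearts, 94.3 to 99.6 at 6 h, 106 to 125.2 at 24 h and 110.6 to 119.6 at 72 h. Neutrophil markers had 7 of 9 up at 6 h, 8 at 24 h and 3 at 72 h, with sums of 39 to 45 in sham hearts, 68.9 to 84.3 at 6 h, 61.6 to 86.8 at 24 h and 49.9 to 62.9 at 72 h. Fibroblast markers rose in 1 of 8 genes at 6 h, 4 at 24 h and 7 at 72 h, and fell in 1, 2 and 0. Cardiomyocyte markers fell in 0 of 7 at 6 h, 3 at 24 h (Ryr2, Myh6 and Pln) and 2 at 72 h, with sums of 121.7 to 123.8 at 24 h against 125.1 to 125.6 in sham hearts. Of 4 markers of proliferating cells, 0 rose at 6 h, 3 at 24 h and 4 at 72 h, with sums of 18.4 to 22.9 in sham hearts, 17.8 to 21.1 at 6 h, 23.4 to 28 at 24 h and 29.5 to 33.7 at 72 h. Endothelial markers had 2 of 7 genes up and 2 down at 6 h, and 0 up and 2 down (Kdr and Tek) at 24 h and at 72 h, with sums of 78.8 to 80.7 in sham hearts, 77.3 to 82 at 6 h, 77.2 to 80 at 24 h and 76.4 to 78.2 at 72 h. The sums of 8 atrial markers were 60.8 to 63.7 in sham hearts, 59.2 to 62.5 at 6 h, 61.1 to 83.4 at 24 h and 63.3 to 67.6 at 72 h. None of 6 T and B cell markers passed, and all of their means were dim. In sham hearts 8 of 9 neutrophil, 5 of 11 monocyte and macrophage and 3 of 4 proliferating cell markers also had dim means. At 6 h 4 of 4 proliferating cell markers were dim, and at 72 h 7 of 9 neutrophil markers were. The sizes of these marker changes therefore depend on the background.

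On the single 24 h arrays, the mean of the 18 cytosolic genes over its sham mean was 0.70, 0.99, 0.92 and 0.35 in replicates 14, 15, 16 and 17, and the same measure of the 11 macrophage markers was 2.65, 3.27, 3.70 and 1.96. For the 9 neutrophil markers it was 3.13, 4.39, 4.87 and 2.07. Replicate 17 was lowest in each of these and in none of the other cell marker lists. The mean of the 16 mitochondrial genes was -0.20, -0.15, -0.42 and -0.26. At 6 h the cytosolic synthetase means were at 0.24 to 0.46, the macrophage markers at 0.90 to 1.38 and the neutrophil markers at 2.88 to 4.59. At 72 h the synthetase means were at 0.09 to 0.24, the macrophage markers at 2.38 to 3.20 and the neutrophil markers at 0.77 to 2.21. In a whole heart, a change in the number of cells of a type and a change in transcript per cell cannot be told apart, and the part that these cell markers have in the synthetase results was not tested.

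**Figure D5:**
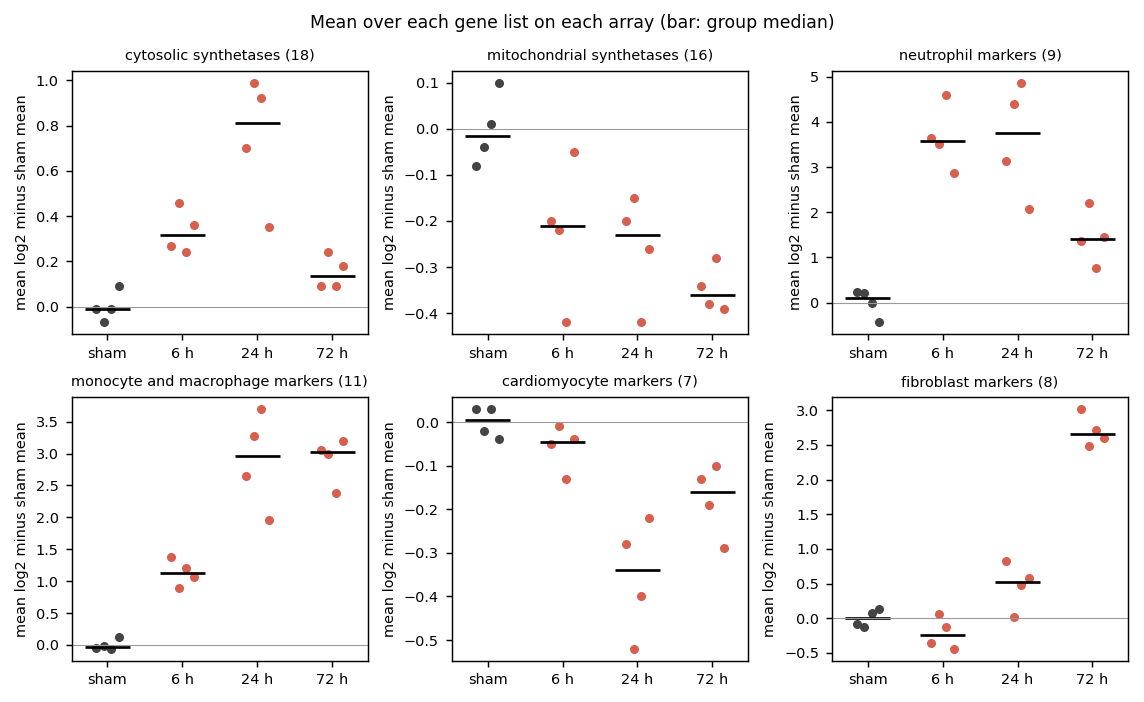
Mean log2 signal of each gene list on each array (points) minus the sham mean of that list, with group medians (bars), over sham, 6, 24 and 72 h. Cytosolic synthetases are highest at 24 h with 1 low array at 0.35, macrophage markers stay high at 72 h, neutrophil markers have a lower median at 72 h than at 24 h, and fibroblast markers are highest at 72 h.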

How the data were processed

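Per the submitters' processing notes, the authors made the deposited log2 values with Affymetrix Expression Console (version, summarization and genome build not given in the sources used here). Base 2 was taken for the log. The design text names another Affymetrix array than the transcript cluster identifiers, which were followed, and the title lists other hours than the labels, which were followed. The 28846 probe sets gave 19505 genes with 1 symbol, each by its probe set with the highest mean; 0 value columns went unused. No filter was set. Group means over all 16 arrays were fitted with limma 3.58.1 (lmFit, eBayes; 12 residual degrees of freedom) under R 4.3.3, with Benjamini-Hochberg adjustment over all genes at 0.05. The fit was tested on simulated data. The number of arrays limits precision: SEs of the synthetase genes were 0.13 to 0.25.

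All synthetase genes are named. Array values are given for the 6 cytosolic and 3 mitochondrial genes with the largest changes, for genes past the threshold against their compartment's direction, and for Wars, Gars, Kars, Qars, Farsa, Farsb and Eprs. Other lists name at most 4 genes per comparison plus some fixed by name. The synthetase genes, lists and rules were chosen with earlier results of these data known. Alternatives were quantile normalization, median and spike-in centring, filters, trend and robust settings, array weights, fits of 2 groups and leaving out arrays. Figures were drawn with matplotlib 3.10.9.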

Additional observations from a re-analysis of the deposited data

Results flagged for a closer look

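In 7 of the 136 checks of 1 synthetase gene in 1 group, a single array stood apart from the other 3 by Dixon's criterion for groups of 4, and chance alone gives such an array in about 1 of 20 groups. In sham hearts, Iars was at 11.90 in replicate 5 against 11.62 to 11.66 in the others, Farsb at 11.12 in replicate 2 against 10.81 to 10.85, Nars2 at 7.57 in replicate 3 against 7.63, and Lars2 at 8.95 in replicate 3 against 9.27 to 9.32. At 24 h replicate 17 had Rars2 at 8.06 against 7.84 to 7.87 and Tars2 at 7.63 against 8.54 to 8.57. At 72 h Fars2 was at 10.62 in replicate 22 against 10.37 to 10.40.

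Changes against sham differed between times in 28 tests of the synthetase genes, where 1 time was set against another in limma, with p adjusted over all genes. The changes share the sham arrays, which drop out of these tests. By comparison, 10 of 34 genes passed at 24 h against 6 h, where 28.2% of all genes did. At 72 h against 24 h 13 of 34 passed (12.9% of all genes), and at 72 h against 6 h 5 of 34 (30.6%). The first count was thus near the share of all genes and the last below it. At 24 h against 6 h the differences were 0.57 in Hars, 0.81 in Rars, 0.51 in Yars, 0.70 in Sars, 0.93 in Mars1, 0.56 in Iars, 0.53 in Lars and 0.71 in Ears2, and -0.57 in Cars2 and -0.90 in Fars2. At 72 h against 24 h they were -0.88 in Cars, -0.66 in Nars, -0.89 in Hars, -1.08 in Rars, -1.09 in Yars, -0.66 in Tars, -0.73 in Farsa, -0.64 in Iars, -0.65 in Wars, -0.53 in Farsb, -0.52 in Lars, -0.56 in Ears2 and -0.63 in Mars2. At 72 h against 6 h they were -0.58 in Yars, -0.41 in Wars, -0.48 in Yars2, -0.55 in Sars2 and -0.50 in Fars2.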

How the results depend on the processing

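Cytosolic rises at 24 h against sham kept within 1.5 times of 14 in all alternatives. Other counts moved by more under some settings, and the cause was not tested. Hybridization spike-in centring gave cytosolic rises of 1 at 6 h, 11 at 72 h and 18 at 24 h against 6 h, cytosolic falls of 3 at 72 h against 24 h and 0 at 72 h against 6 h, mitochondrial falls of 5 at 6 h, 1 at 24 h and 0 at 72 h, and synthetase calls of 11 at 72 h, 27 at 24 h against 6 h, 4 at 72 h against 24 h and 19 at 72 h against 6 h. Poly-A spike-in centring gave cytosolic rises of 0 at 6 h, 3 at 72 h and 13 at 24 h against 6 h, cytosolic falls of 3 and 0 in the same comparisons of times, mitochondrial falls of 9 at 6 h and 1 at 72 h, and calls of 16 at 24 h against 6 h, 4 at 72 h against 24 h and 11 at 72 h against 6 h. Calls split 17 up and 0 down among cytosolic genes at 24 h with the first and 11 and 0 with the second, while all genes split 4546 up and 841 down and 2033 up and 2479 down, against 2701 and 2392 as deposited. At 6 h all genes split 975 up and 3993 down with the first and 864 and 6087 with the second, against 1545 and 2395 as deposited. At 72 h all genes split 7270 up and 247 down and 2752 up and 590 down, against 2247 and 2004 as deposited. The first centring reversed the differences at 72 h against 6 h of Yars (0.14), Wars (0.31), Yars2 (0.23), Sars2 (0.17) and Fars2 (0.21), and the second those of Wars (0.12), Yars2 (0.04) and Fars2 (0.02). At 72 h against 6 h, quantile normalization gave 4 cytosolic falls and 9 calls, median centring 5 and 9, and array weights 8 calls. Mitochondrial falls at 6 h were 0 with median centring or array weights and 2 with the filter on negative controls. Cytosolic rises at 72 h were 2 with either filter or the trend setting, and 3 with array weights or fits of 2 groups, which also gave 5 cytosolic falls and 6 calls at 72 h against 24 h. Leaving out 72 h replicates 21 and 23 together, an alternative chosen after seeing the data, gave 0 cytosolic rises, 1 mitochondrial fall and 1 call at 72 h, 5 cytosolic falls and 5 calls at 72 h against 24 h, and 2 calls at 72 h against 6 h. Without each array in turn, cytosolic rises ran from 3 to 7 at 6 h, 12 to 15 at 24 h, 0 to 2 at 72 h and 4 to 11 at 24 h against 6 h, and cytosolic falls from 5 to 15 at 72 h against 24 h and 1 to 2 at 72 h against 6 h. Mitochondrial falls ran from 0 to 1 at 6 h, 3 to 4 at 24 h and 3 to 5 at 72 h. All calls ran from 3 to 7 at 6 h (8 with all arrays), 15 to 19 at 24 h, 4 to 6 at 72 h, 7 to 13 at 24 h against 6 h, 5 to 17 at 72 h against 24 h and 2 to 6 at 72 h against 6 h. The mean of probe sets changed no synthetase value, since each gene had 1. No paired analysis was possible because no 2 groups share a replicate number. Dim signals and 4 arrays per group limit the precision.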
